A study of Mus musculus with 3 samples.

Results

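Single-cell RNA sequencing of CD11b+ cells of the mouse fetal brain at E18.5 was used to describe 32 genes of DNA replication and S phase among the 27998 genes of the deposited tables. The members were taken by symbol from a list of replication genes, proposed with earlier results of these data known, and all 32 were found. No measured value enters the rule that names them. They are the helicase genes Mcm2, Mcm3, Mcm4, Mcm5, Mcm6, Mcm7, Cdc6, Cdc45 and Gins2, the fork genes Pcna, Rfc2, Rpa2, Pola1, Fen1 and Lig1, and the nucleotide genes Tyms, Rrm1, Rrm2 and Dut. The others are the fork protection and repair genes Clspn, Tipin, Ung, Exo1 and Rad51ap1, the chromatin and histone genes Uhrf1, Hells, Chaf1b and Slbp, and the cell cycle genes Ccne1, Ccne2, E2f8 and Dtl.

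Each of 3 groups of pregnant mice gave 1 library of fetal cells, taken with magnetic beads. The saline group was of genotype Ncr1-cre, the polyIC group had the same genotype, and the Gzmb-cko group received polyIC and was of genotype Ncr1-cre;gzmbf/f. The Cre driver Ncr1-cre, which acts in NK cells and some other innate lymphocytes, was therefore present in all groups, controls included. In Gzmb-cko it is paired with a floxed allele of the gene for granzyme B, which cytotoxic lymphocytes carry in their granules. PolyIC is a double-stranded RNA analogue used to provoke an antiviral response. How many fetuses were pooled, when and how much was injected, and if the stated genotype describes dam or fetus is not given in the sources used. A Gzmb-cko group with saline was not analysed here, and the polyIC library of Ncr1-cre enters both comparisons.

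Before S phase, Cdc6 helps to load the hexamer of Mcm proteins onto origins, and Cdc45 and the GINS complex turn it into an active helicase. DNA polymerase alpha then primes both strands, the clamp Pcna is placed by replication factor C, and Fen1 and Lig1 mature and join the Okazaki fragments. Transcription of these genes rises at the passage from G1 into S, when E2F factors are freed from retinoblastoma family proteins and cyclin E is made. Microglia enter the brain early as yolk sac macrophages and expand there by division before birth, and radial glia are the dividing neural progenitors of the same tissue.

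Promoter sequences from RefSeq (build GRCm38.p6) were matched for 26 of the 32 members. Mcm4, Gins2, Rfc2, Tipin, Exo1 and Ccne2 had no entry. The E2F motif was searched as TTTNNCGC, in which each N was C or G, on both strands of the 250 bases before the start, with overlapping matches counted. It was found in 8 of 26 member genes (30.8%) and in 2.16% of 27025 genes searched in the same way. The CCAAT box, bound by the factor NF-Y, was found in 17 of 26 member genes (65.4%) and in 37.5% of all genes. Median GC content was 62.4% in the 31 promoters of the members and 52.4% in all, and the E2F motif is itself rich in G and C. The matches of the 6 members whose windows overlapped no annotated exon are shown so that the letters behind this count can be read, with the motif in capitals and 20 flanking bases. They lie at chr1:128359725-128359835 (Mcm6, minus strand), chr8:75109336-75109387 (Mcm5, plus), chr11:98907993-98908040 (Cdc6, plus), chr1:191575545-191575572 (Dtl, minus), chrX:93632266-93632313 (Pola1, minus) and chr17:56304108-56304155 (Uhrf1, plus).
Mcm6: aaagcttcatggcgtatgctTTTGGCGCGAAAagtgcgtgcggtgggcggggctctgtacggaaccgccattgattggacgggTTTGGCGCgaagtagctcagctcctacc
Mcm5: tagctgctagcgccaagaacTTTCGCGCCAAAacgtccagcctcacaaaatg
Cdc6: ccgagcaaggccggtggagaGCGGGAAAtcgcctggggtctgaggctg
Dtl: atcagaaagcgtgacgtcagTTTGGCGC
Pola1: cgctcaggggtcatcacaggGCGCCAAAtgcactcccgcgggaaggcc
Uhrf1: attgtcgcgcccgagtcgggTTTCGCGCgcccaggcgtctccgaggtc
Mcm6 held 3 matches and Mcm5 held 2, and in both genes a pair ran into each other on opposite strands. In Dtl the match lay 8 bases before the start, where the printed window ends. Hells and Mcm7 also held a match, in windows that overlap annotated exons. A match is a description of letters and was not tied to any binding measured here.

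Cells were assigned by gates on raw counts of unique molecular identifiers (UMIs): microglia by P2ry12 without Mrc1, border macrophages by Mrc1 and Pf4, monocytes by Ccr2 and Ly6c2, radial glia by Sox2 and Fabp7, and globin-rich cells by hemoglobin genes at 20% or more of UMIs. After filtering, 12148 (saline), 10759 (polyIC) and 13447 (Gzmb-cko) cells were kept, of which 5452, 4519 and 5399 were microglia. The other gates held 686 to 1896 border macrophages, 465 to 718 monocytes, 233 to 1216 globin-rich cells and 93 to 163 radial glia per library. Between 4442 and 5659 cells per library passed no gate, and 294 to 914 passed more than 1. The lowest UMI total of a kept cell differed between libraries, at 3133 (saline), 628 (polyIC) and 644 (Gzmb-cko), and pairs of libraries shared 34 to 51 kept barcodes.

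All 7 microglia markers were detected in the microglia of each library, with a summed level of 6503, 9335 and 9204 CPM (UMIs scaled to the same total in every library) in saline, polyIC and Gzmb-cko. Of cells with 20% or more globin, 90.95%, 78.4% and 90.1% held 5 or more UMIs of C1qa, C1qb, C1qc and Csf1r, genes of macrophages. They were therefore not called erythroid and are named by their rule. Over all kept cells the shares were 90.5%, 78.2% and 86.8%, so this count does not set the gate apart. Above 80% globin (88, 68 and 21 cells), macrophage genes fell to 7219, 5579 and 6488 CPM outside globin. At 20% to 50% globin they were at 14043, 13431 and 15508 CPM. Alas2, an erythroid marker, was higher above 80% than at 20% to 50% in every library. The radial glia gate held all 7 of its markers at 9430, 5850 and 3953 CPM, but also 4 choroid plexus markers at 50702, 34514 and 24522 CPM and 7 macrophage markers at 4668, 2279 and 6718 CPM. The monocyte gate held 9 markers of neutrophils and their precursors at 13705, 7436 and 6219 CPM, with Mpo at 0 in Gzmb-cko. By the count used for globin-rich cells, 48.6%, 20.9% and 37.6% of radial glia held 5 or more UMIs of the 4 macrophage genes. In monocytes the shares were 61.6%, 38.8% and 52.3%. In the microglia themselves, RNA of other cells differed between libraries: globin genes took 9.75%, 5.45% and 2.53% of UMIs, and the 4 choroid plexus markers stood at 10759, 9796 and 3965 CPM. Their part in the ratios below was not tested, beyond the scalings named beside them.

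The 32 members together took 1168 CPM of the microglial RNA in saline (95% Poisson interval 1156 to 1180), 1118 CPM in polyIC (1105 to 1131) and 1309 CPM in Gzmb-cko (1297 to 1320). The Gzmb-cko library was thus the highest and the polyIC library the lowest, and the counting intervals did not overlap. Border macrophages were close to microglia, with 1101, 1139 and 1293 CPM. Monocytes stood lower in every library, at 665, 683 and 643 CPM. Radial glia stood higher in every library, at 1917, 2031 and 2109 CPM. Globin-rich cells had 519, 442 and 516 CPM, and 1062, 1042 and 1077 CPM when globin UMIs were left out of the total. Cells outside every gate had 1282, 1279 and 1444 CPM. Intervals cover counting error only, and with 1 library per group no difference between groups has a replicate check. In such pooled sums, fewer cells of a kind and less RNA per cell cannot be told apart.

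**Figure D1:**
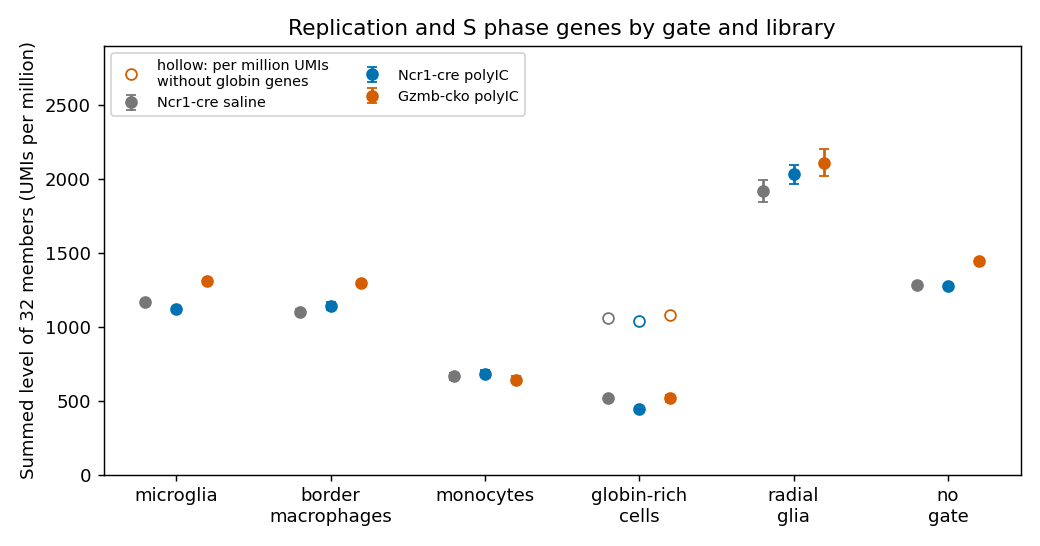
Summed level of the 32 members in CPM (vertical axis, from 0) for 5 gates and the cells of no gate (horizontal axis). Points are libraries with exact 95% Poisson intervals, and hollow points leave globin genes out of the total; radial glia sit near 2000 and monocytes near 650 in all 3 libraries, from 1917 to 2109 and from 643 to 683 CPM.

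PolyIC was compared with saline among Ncr1-cre groups, and Gzmb-cko with Ncr1-cre among polyIC groups, for each member that reached a mean of 10 CPM over the 3 libraries and 100 UMIs over the pair compared. In microglia 29 of the 32 members did so, and Cdc6 (5.88 to 6.63 CPM), Cdc45 (7.25 to 7.97 CPM) and Exo1 (8.71 to 9.19 CPM) did not. No member reached a ratio of 1.5 in either direction, where 5.49% of 7847 genes did so for polyIC over saline and 2.46% for Gzmb-cko over polyIC. The summed ratio was 0.957 (95% interval 0.943 to 0.972, log2 -0.06) for polyIC over saline and 1.17 (1.15 to 1.19, log2 0.23) for Gzmb-cko over polyIC. The half-width of a member's Poisson interval in microglia was 3.28% to 15.9% of its level, with a median of 6.02%.

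For polyIC over saline, 20 of 29 members were lower and 9 higher, with a median log2 ratio of -0.05, while 76.8% of all genes tested were higher and their median was 0.18. Scaling by trimmed means (TMM), which moves every log2 ratio here by -0.18, left 3 members higher. For Gzmb-cko over polyIC, 28 of 29 members were higher, with a median of 0.24, while 42.6% of all genes were higher and their median was -0.04. TMM moved these ratios by 0.11 and put all 29 higher. The polyIC library is the denominator of the second comparison and the numerator of the first, so a low value in it enters both.

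At a ratio of 1.25, a limit chosen after the values were seen, 5 members were lower in polyIC than in saline (4.13% of all genes were) and 1 was higher (25.7% of all genes). The 5 were Lig1, Hells, Rad51ap1, Ccne2 and Dut, and the 1 was Pcna. For Gzmb-cko over polyIC, 10 members were higher (2.68% of all genes) and 0 lower (9.88% of all genes). They were Gins2, Rpa2, Fen1, Lig1, Dut, Ung, Rad51ap1, Uhrf1, Chaf1b and Ccne1. Under the mean of per-cell CPM, or with only cells of exactly 1 gate, the 10 became 6, and with TMM they became 17. For polyIC over saline, TMM turned the 5 lower members into 10, and the 1 higher, Pcna, into 0. Pcna also fell short of 1.25 with cells of exactly 1 gate, per cell, and with mitochondrial, ribosomal protein and hemoglobin genes left out of the total.

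Among the helicase genes, Mcm3, a subunit of the helicase ring, stood at 90.3 CPM in saline, 87.4 in polyIC and 98.5 in Gzmb-cko. Mcm6, another subunit, was at 59.5, 58.8 and 63.8 CPM. Mcm7 was at 48.0, 42.5 and 50.8 CPM, with ratios of 0.886 (0.821 to 0.957) and 1.20 (1.11 to 1.29). The polyIC library was the lowest of the 3 for each, as it was for Mcm2, Mcm5 and Gins2, but only for Mcm7 did the interval of polyIC over saline leave out 1. Mcm4 differed from them in the first comparison, at 33.4, 38.4 and 38.9 CPM with a ratio of 1.15 (1.05 to 1.25) for polyIC over saline. The last 300 bases of the longest transcripts of Mcm2, Mcm5, Mcm7 and Gins2 match other genes at 95% or more over 100 or more bases. Matches on either strand were counted. Mcm7 also overlaps Mir25 and Mir93 on its strand. How far this makes their levels uncertain was not tested.

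The fork genes differed among themselves for polyIC over saline. Lig1, the ligase that joins Okazaki fragments, was at 61.6 CPM in saline (59.0 to 64.4), 41.4 in polyIC (39.0 to 43.9) and 57.3 in Gzmb-cko (54.9 to 59.9). On these totals only the polyIC library stood apart, below the others. The ratios of Lig1 were 0.672 (0.624 to 0.723) for polyIC over saline and 1.39 (1.29 to 1.49) for Gzmb-cko over polyIC. The totals include globin genes, at 9.75%, 5.45% and 2.53% of UMIs in saline, polyIC and Gzmb-cko, which scales saline levels down most. Pcna, the sliding clamp that holds polymerases on DNA, had another order, at 68.0 CPM in saline (65.2 to 70.9), 88.8 in polyIC (85.3 to 92.4) and 99.8 in Gzmb-cko (96.6 to 103). Its saline library was the lowest, with ratios of 1.31 (1.23 to 1.38) and 1.12 (1.07 to 1.18). With TMM the log2 ratio of Pcna for polyIC over saline was 0.20 in place of 0.38. Rfc2, a subunit of the clamp loader, was at 62.8, 63.5 and 76.5 CPM, with the Gzmb-cko library apart from the other two. Of the rest, Fen1, the flap nuclease, had a ratio of 1.35 (1.24 to 1.47) for Gzmb-cko over polyIC. The end of its transcript also matches another gene in the search described above. Pola1, the catalytic subunit of polymerase alpha, was the 1 tested member below 1 there, at 0.947 (0.842 to 1.06).

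Nucleotide supply was uneven. Rrm1, the large subunit of ribonucleotide reductase, was at 59.8, 58.5 and 59.3 CPM, and its ratios of 0.979 and 1.01 both had intervals across 1. Dut, which removes dUTP, was at 54.6, 43.2 and 59.4 CPM, lowest in polyIC as Lig1 was, with ratios of 0.791 (0.734 to 0.853) and 1.38 (1.28 to 1.48). Tyms, which makes thymidylate, was at 45.1, 46.2 and 52.6 CPM. Rrm2, the small subunit of the reductase, was at 35.8, 38.0 and 45.0 CPM. Tyms and Rrm2 were thus close in the first pair of libraries and higher in Gzmb-cko, with ratios of 1.14 (1.06 to 1.23) and 1.18 (1.09 to 1.28).

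Among fork protection and repair genes, Tipin, part of the fork protection complex, was at 43.9, 48.9 and 59.6 CPM, the same order of libraries as for Pcna. Rad51ap1, which acts in homologous recombination, was at 32.1, 24.5 and 32.2 CPM. PolyIC was thus low and the others alike, on totals that include globin. The ratios of Rad51ap1 were 0.764 (0.692 to 0.843) and 1.31 (1.19 to 1.45). Clspn, the claspin that links stalled forks to the checkpoint kinase, was at 28.4, 25.7 and 29.0 CPM. Ung, which cuts uracil from DNA, had ratios of 1.17 (1.01 to 1.36) and 1.25 (1.09 to 1.43). Exo1, a nuclease of mismatch repair, had intervals across 1 in both comparisons.

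Of the chromatin genes, Slbp, which binds the stem loop of histone mRNAs, was at 78.8, 73.3 and 85.9 CPM. Hells, a remodelling helicase needed for DNA methylation, was at 45.2 CPM in saline (42.9 to 47.6), 30.6 in polyIC (28.5 to 32.7) and 36.1 in Gzmb-cko (34.1 to 38.1). Hells stayed below its saline level in Gzmb-cko, with intervals that did not overlap. Those of Lig1 did overlap, on totals that include globin. Uhrf1, which brings the maintenance methyltransferase to new DNA, was at 30.4, 27.0 and 34.3 CPM, with ratios of 0.889 (0.807 to 0.979) and 1.27 (1.16 to 1.39). Chaf1b, a subunit of the histone chaperone of the fork, had a ratio of 1.40 (1.20 to 1.63) for Gzmb-cko over polyIC.

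In the cell cycle group, Dtl, which marks licensing factors for destruction, was at 25.0, 28.3 and 29.7 CPM. E2f8, a repressor that switches S phase genes off, was at 14.6, 13.8 and 15.6 CPM. The cyclin E genes were at 12.9, 11.2 and 15.5 CPM for Ccne1 and at 12.4, 9.34 and 11.1 CPM for Ccne2, so both were lowest in polyIC. The ratio of Ccne2 was 0.751 (0.639 to 0.881) for polyIC over saline, and that of Ccne1 was 1.39 (1.20 to 1.60) for Gzmb-cko over polyIC. The transcript end of Ccne2 matches another gene, on a strand that was not checked.

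**Figure D2:**
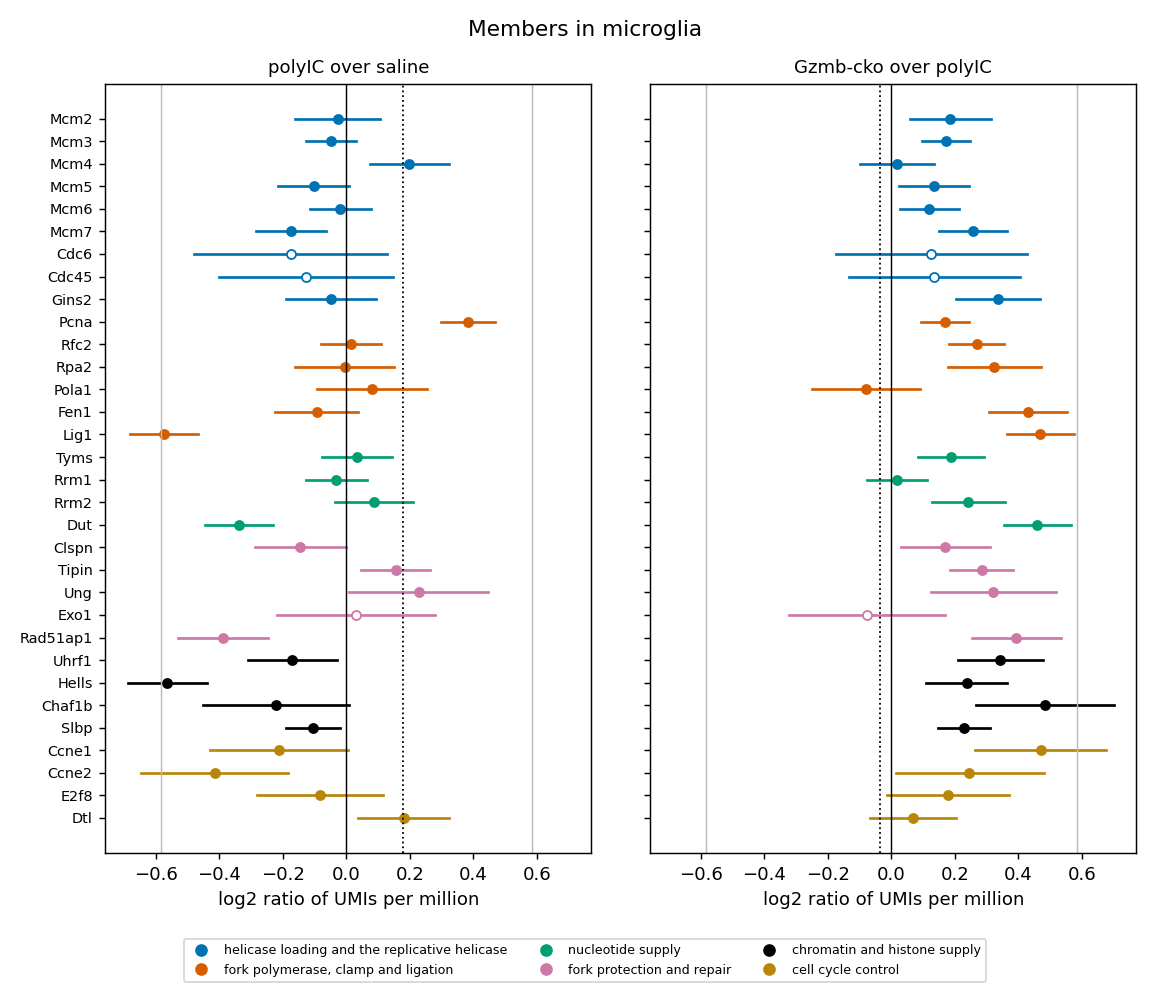
Log2 ratio of CPM in microglia for each member (rows, coloured by role) with exact 95% counting intervals; hollow points did not reach the level limit. The dotted line is the median of all genes tested (0.18 on the left, -0.04 on the right) and the grey lines mark a ratio of 1.5 either way, which no filled point passes.

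Other cell cycle lists were counted in the same microglia, where 76.8% of all genes were higher in polyIC than in saline and 42.6% higher in Gzmb-cko than in polyIC. Of 70 other replication genes, 56 were measured, and 30 were higher and 26 lower in polyIC than in saline (median log2 0.03). Of the 56, 36 were higher in Gzmb-cko than in polyIC (median 0.08). Rpa3, a subunit of the single-strand binding complex, went from 17.3 to 32.9 CPM from saline to polyIC, a ratio of 1.90 (1.71 to 2.12). Of 30 mitosis genes, 24 were lower in polyIC than in saline (median -0.19) and 18 were higher in Gzmb-cko than in polyIC (median 0.03). Nusap1, a spindle gene, was at 77.1 and 52.9 CPM in saline and polyIC, and Cdk1, the mitotic kinase, was at 76.7 CPM in polyIC and 101 CPM in Gzmb-cko. Among 10 measured inhibitors and pocket proteins, 8 were higher in polyIC, near the share of all genes, with Cdkn1b, which encodes the inhibitor p27, at 37.4 CPM in saline, 60.8 in polyIC and 42.2 in Gzmb-cko. Ccnd2, a G1 cyclin, was at 47.5, 41.7 and 19.0 CPM, a ratio of 0.455 (0.413 to 0.501) for Gzmb-cko over polyIC.

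In border macrophages, 28 members were measured and none reached a ratio of 1.5, against 10.8% of all genes for polyIC over saline and 3.77% for Gzmb-cko over polyIC. For Gzmb-cko over polyIC, 24 of the 28 were higher (median 0.18, against -0.04 over all genes), and 8 passed 1.25 upward (5.6% of all genes). These were Mcm7, Gins2, Rfc2, Fen1, Dut, Rad51ap1, Uhrf1 and Chaf1b. Lig1 was at 62.9, 47.7 and 59.3 CPM and Pcna at 67.2, 90.8 and 97.5 CPM there, the same orders over the libraries as in microglia. For polyIC over saline 15 of 28 were higher (median 0.03), where 74.3% of all genes were (median 0.18). The sum of the members was 1.03 (1.003 to 1.07) times as high in polyIC as in saline, a value that TMM turned to a log2 ratio of -0.17.

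In monocytes 4 of 23 members passed 1.5 for polyIC over saline, where 17.8% of all genes did. Gins2 went from 13.2 to 8.25 CPM, Lig1 from 32.6 to 21.7 and Hells from 20.5 to 11.9, while E2f8 went from 9.78 to 15.5 CPM. The members were counted from 101 to 254 UMIs, and the ratio of Hells, 0.578, had an interval of 0.400 to 0.824. For Gzmb-cko over polyIC 1 of 20 passed, Mcm7, from 26.1 to 16.9 CPM, where 6.49% of all genes did. In Gzmb-cko, 13 of these 20 were lower than in polyIC (median -0.10), and 23 of 25 mitosis genes were lower as well (median -0.46), where 42.3% of all genes were higher (median -0.05). The members' count is thus near the share of all genes. Whether the comparisons differ between cell classes was not tested.

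In globin-rich cells 5 of 23 members passed 1.5 for polyIC over saline, where 7.05% of all genes did, and 2 of 21 for Gzmb-cko over polyIC, where 7.16% did. Globin is part of these totals, at 51.1%, 57.6% and 52.1% of UMIs in saline, polyIC and Gzmb-cko. Without it the summed members stood at 1062, 1042 and 1077 CPM. Hells was at 17.6, 7.56 and 15.4 CPM and Lig1 at 28.4, 15.3 and 21.5 CPM, both lowest in polyIC. Rrm2 went the other way, at 16.8, 25.4 and 15.4 CPM, highest in polyIC, with ratios of 1.51 (1.22 to 1.87) and 0.605 (0.434 to 0.833). In radial glia 1 of 23 members passed 1.5 in each comparison, where 25.1% and 30.7% of all genes did. There Rrm2 was at 90.7 CPM in saline and 163 in polyIC, a ratio of 1.79 (1.45 to 2.23), and Rrm1 was 0.654 (0.507 to 0.839) in Gzmb-cko over polyIC. The 93 to 163 radial glia per library gave 2075 to 3893 member UMIs. For polyIC over saline, 21 members reached the level limit in all 5 gates. Pcna, Rrm2 and Tipin, 3 of the 21, were higher in every gate, where 23.9% of 4098 genes were. Directions were counted here without a limit on size or interval. In microglia Rrm2 had a ratio of 1.06 (0.976 to 1.16, log2 0.09), and Tipin had a log2 ratio of 0.16. The TMM shift of -0.18 in microglia turns both lower, while Pcna stays higher. Mcm7, Lig1, Dut, Clspn, Rad51ap1, Uhrf1 and Hells, 7 of the 21, were lower in every gate, where 9.88% of genes were. The TMM shift leaves these 7 lower in microglia. In monocytes Mcm7 had a ratio of 0.963 (0.739 to 1.25). For Gzmb-cko over polyIC, 3 of 18, Fen1, Lig1 and Uhrf1, were higher in every gate, where 17.1% of 3759 genes were. In that comparison 0 were lower in every gate, where 16.2% of genes were. In monocytes Fen1 was nearly level, at log2 0.0071, with a ratio interval of 0.696 to 1.45. The gates share a library, its free RNA and some cells, so these are not 5 separate measurements. In globin-rich cells the directions also rest on totals that include globin.

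Cell classes were compared with microglia over the 3 libraries, with the library as a block, by edgeR's quasi-likelihood test on summed counts of cells in exactly 1 gate, without globin genes. This model was added after the data were seen. Monocytes were lower in 26 of 32 members and higher in 0 (adjusted p under 0.05), where 24.6% of 12105 genes were lower. DESeq2 gave the same counts, and 26 members had an unadjusted p under 0.05 in edgeR. The fall was largest for Exo1 (log2 -2.14 ± 0.34 SE, edgeR adjusted p = 7.5e-05), Ung (-1.92 ± 0.26, 1.7e-05) and Dtl (-1.68 ± 0.17, 7.0e-07), and Mcm2, Mcm3, Gins2, Rad51ap1 and Hells were also lower by more than 1. Over all gated monocytes of saline, polyIC and Gzmb-cko, Exo1 had only 19, 9 and 9 UMIs and Ung 22, 11 and 21. The folds of Exo1 and Ung thus rest on few counts. Dtl, over all gated cells, was at 25.0 to 29.7 CPM in microglia and 6.96 to 8.96 in monocytes, with no overlap. The 6 members that did not pass were Cdc6, Cdc45, Rfc2, Dut, Slbp and E2f8. Slbp, also over all gated cells, was at 65.4, 76.9 and 71.9 CPM in monocytes, close to its microglial level of 73.3 to 85.9 CPM. The count stayed between 23 and 27 when 1 library was left out. In the list of other replication genes 41 of 69 were lower and 6 higher, and in that of mitosis genes 19 of 30 were lower.

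Radial glia were higher than microglia in 17 of 32 members (32.9% of all genes were) and lower in 1 (31% of all genes). The log2 values and p-values rest on the 93, 130 and 56 radial glia of exactly 1 gate, without globin genes. The CPM beside them are over all gated cells, with globin in the totals. Dut led, with 194, 186 and 241 CPM against 54.6, 43.2 and 59.4 in microglia (log2 1.82 ± 0.15 SE, edgeR adjusted p = 6.2e-08). Rrm2 followed at 90.7, 163 and 127 CPM (1.60 ± 0.17, 6.8e-07), then Clspn at 65.1, 60.5 and 81.3 CPM (1.28 ± 0.14, 1.4e-06) and Mcm7 at 113, 105 and 103 CPM (1.12 ± 0.14, 3.9e-06). For all 4 the libraries of radial glia lay above those of microglia without overlap. Mcm3 was the 1 member that fell, at 68.8, 72 and 87.4 CPM against 90.3, 87.4 and 98.5 (log2 -0.62 ± 0.13, edgeR adjusted p = 0.00056). Among the helicase subunits, Mcm2, Mcm4, Mcm5 and Mcm6 did not pass, with log2 values between 0.04 and 0.28. The 17 became 11 when the Ncr1-cre polyIC library was left out, and 12 or 13 without another library. With all gated cells 14 members were higher and 2 lower. Of 30 mitosis genes, 29 were higher in radial glia. This gate carried the choroid plexus and macrophage RNA given above, whose part in these values was not tested.

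Border macrophages had 0 members higher and 1 lower than microglia (4.91% of all genes were lower), which was Hells (log2 -0.31), by edgeR, with 3 members at an unadjusted p under 0.05. DESeq2, and edgeR with any 1 library left out, called 0 members lower. Globin-rich cells also had 1 member lower, Hells (-0.62, where 0.909% of all genes were lower by edgeR), and 10 at an unadjusted p under 0.05. That count was 0 without the polyIC or the Gzmb-cko library and 2 without the saline library. Within the globin-rich cells, the summed member level outside globin was 1156 CPM at 20% to 50% globin and 908 CPM at 50% to 80% in saline. In polyIC it was 1202 and 843 CPM, and in Gzmb-cko 1217 and 817 CPM. Above 80% it was 609, 1055 and 741 CPM, from 88, 68 and 21 cells, so it was lower at 50% to 80% than below 50% in every library and in no common order above that.

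**Figure D3:**
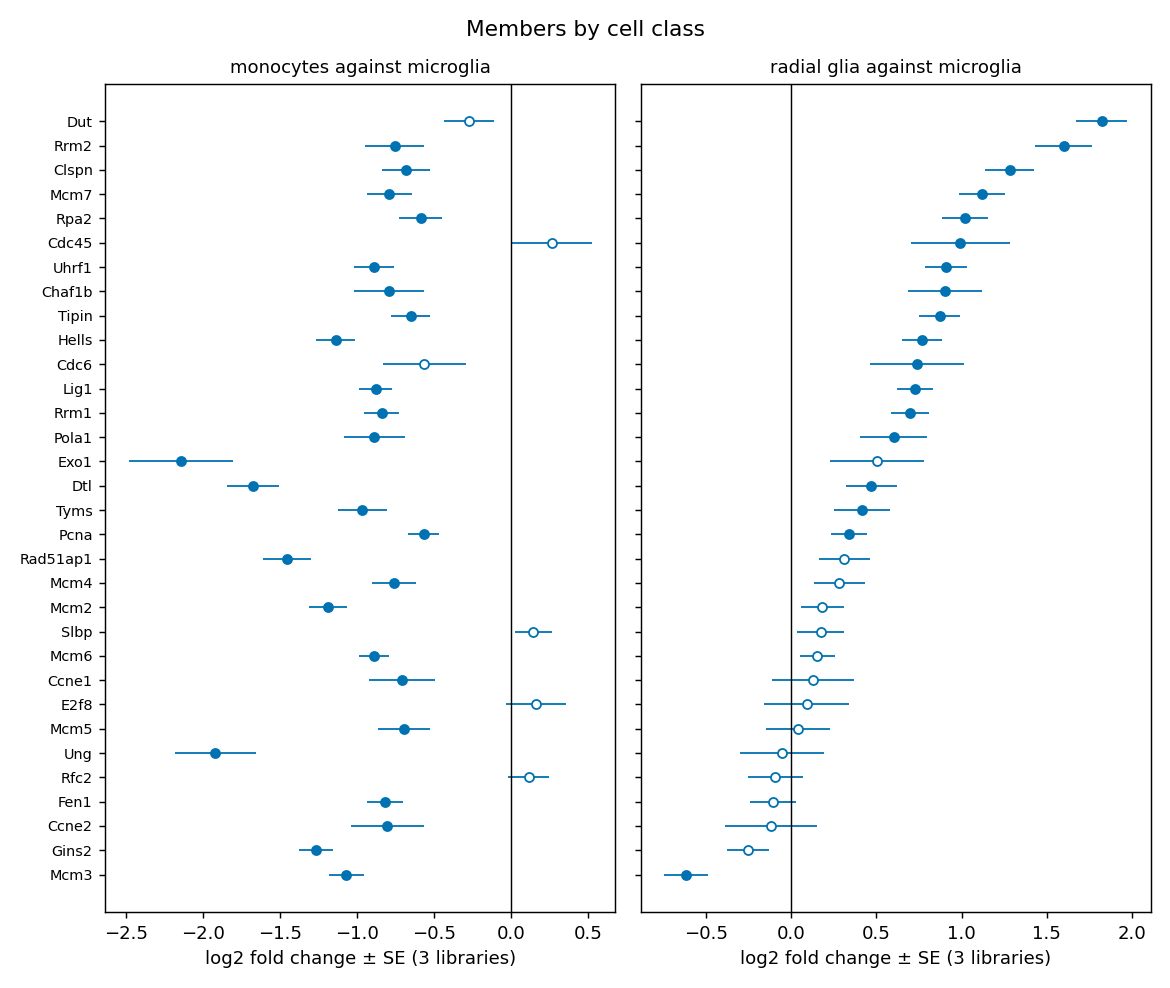
Log2 fold change of each member in monocytes (left) and radial glia (right) against microglia, from summed counts of 3 libraries, with the standard error as bars and filled points at an edgeR adjusted p under 0.05. Monocyte points lie mostly left of 0, with 26 filled, and radial glia mostly right of 0, with 17 filled there and Mcm3 on the left.

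To count cells at equal depth, each cell was thinned to 3000 UMIs and called positive with 4 or more of the 32 members. In microglia 28.2% (Clopper-Pearson 27.0 to 29.4) were positive in saline, 23.7% (22.3 to 25.1) in polyIC and 28.5% (27.2 to 29.8) in Gzmb-cko, and 40.8%, 35.0% and 42.6% without thinning. The polyIC library was thus lowest both ways, and its interval did not meet the others. Thinning left out 0, 768 and 447 microglia with fewer UMIs. In the saline and polyIC libraries 310 and 187 microglia lay exactly at 4 members and 414 and 290 at 3, so the class is a range and not a cell type. Border macrophages had 25.3%, 26.9% and 31.3%, monocytes 9.19%, 8.37% and 7.19%, and radial glia 49.3%, 46.4% and 41.9%. Globin-rich cells had 11.7%, 8.58% and 10.5%, but globin takes part of their 3000 UMIs. For background, cells with Ttr at 5% or more of UMIs and no UMI of the 4 macrophage genes, a kind that should divide little, gave 0 of 40 cells (Clopper-Pearson upper bound 8.81%), 2.86% of 175 and 2.65% of 113. Thinning left out 0, 221 and 234 shallower cells of this kind. Over all 40, 396 and 347 of them, median depth before thinning was 4115, 2681 and 2320 UMIs. In all microglia it was 4809, 5176 and 5780 UMIs.

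Of the thinned member UMIs, 76.8%, 73.6% and 77.6% lay in positive microglia. These cells were chosen by the same counts, so a large share follows from their definition. No other gene list was set beside it. Their median total was 5174, 6465 and 6774 UMIs, against 4638, 5489 and 5762 in microglia with 0 or 1 member. Between 6.21% and 8.78% of microglia per library held 10 or more members, and 23.8% to 28.1% held none. Positive monocytes had 9693, 11862 and 12192 UMIs against 4788, 6419 and 6510, and the doublet caller marked 10.4%, 8.24% and 14.0% of all monocytes, against 2.57%, 2.92% and 4.09% of microglia. How far doublets make up the positive monocytes was not tested.

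**Figure D4:**
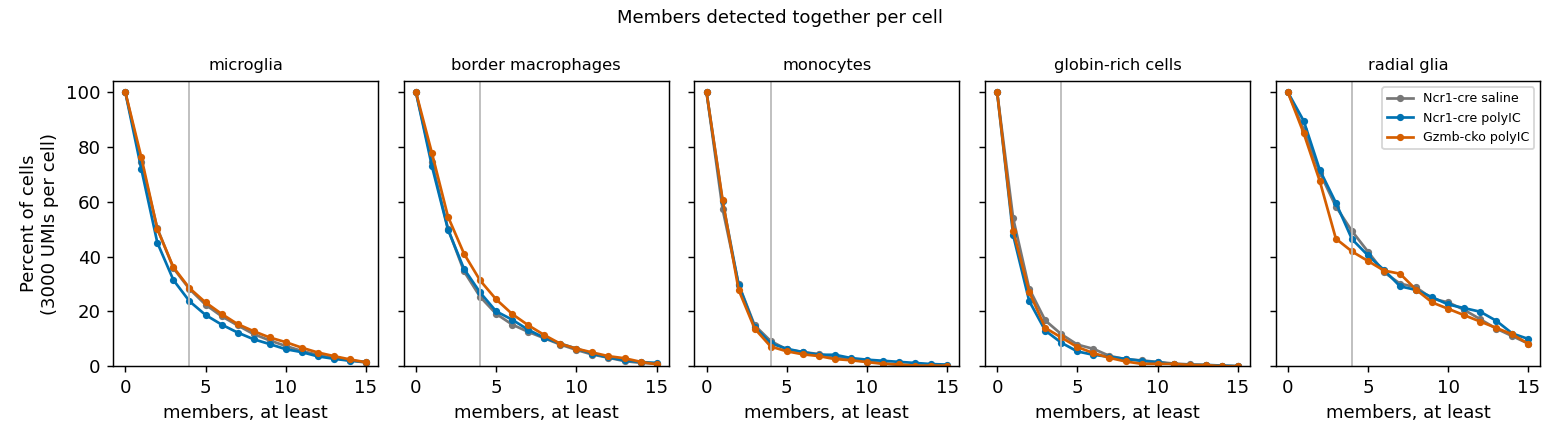
Percent of cells (vertical axis) with at least the number of members on the horizontal axis, at 3000 UMIs per cell, for 5 gates and 3 libraries; the grey line marks 4 members. At that line microglia lie between 23.7% and 28.5%, monocytes between 7.19% and 9.19% and radial glia between 41.9% and 49.3%.

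Members were detected together in the same cells. For each one, its level was compared between thinned microglia with 4 or more of the other 31 members and those with 0 or 1. All 32 were higher in the first set, and 29 were more than 5 times as high in all 3 libraries. How many of all genes were higher in such cells was not counted. Rfc2 (3.16, 3.51 and 3.77 times), Slbp (3.72, 3.57 and 3.81 times) and Pcna (4.31, 3.93 and 4.43 times) stood least apart. They were at 35.7 to 49.98 CPM in the cells with 0 or 1 other member, and at 10.6 to 57.0 CPM in the cells rich in Ttr used above as background. These ranges overlap, so the level in the low cells is not read as their own RNA. Ccne1, in contrast, was at 0.859, 1.13 and 1.07 CPM in those cells and 44.4, 35.2 and 48.3 CPM in the first set, from 7 or 8 UMIs in the low set. Rrm2 was at 2.94, 4.02 and 3.74 CPM against 109, 116 and 121 CPM. Cells share depth and a library here, so these ratios are a description.

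Mitosis genes then divided the positive cells. A list of 30, which includes Cdk1, Ccna2 and Top2a, genes that begin to be made in S phase, was detected at 4 or more in 46.4%, 37.0% and 38.7% of microglia with 4 or more members and in 14.3%, 8.94% and 11.0% of the others. Over all microglia the shares were 23.3%, 15.6% and 18.9%. So the saline library had the most microglia with mitosis genes, while its share of cells with members was close to that of Gzmb-cko. In cells with 4 or more members, those with under 4 mitosis genes made up 15.1%, 14.9% and 17.4% of microglia, and those with both made up 13.1%, 8.77% and 11.0%.

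Among microglia with 4 or more other members, each member was compared between cells with 4 or more mitosis genes and cells with 0 or 1. Rrm2 was 17.7 (11.5 to 29.0), 22.5 (13.6 to 39.9) and 14.0 (9.97 to 20.1) times as high in the former. E2f8 was 11.7 (6.68 to 22.4), 16.4 (8.01 to 39.1) and 12.9 (7.28 to 24.8) times as high, and Ccne1 4.24, 5.02 and 5.76 times. The interval lay above 1 in all 3 libraries for 18 members, the others being Ccne2, Rad51ap1, Tyms, Clspn, Exo1, Rrm1, Cdc45, Pola1, Dut, Uhrf1, Fen1, Pcna, Slbp, Lig1 and Tipin. It lay below 1 in all 3 for 0 members, but in 2 libraries for Mcm3, Mcm4, Ung and Hells. The share of all genes with such intervals was not counted, so these counts describe the members only. Ung was at 0.620, 0.738 and 0.529 times, and Hells at 0.781, 0.767 and 0.643 times. Dtl was near level, at 0.957, 0.914 and 0.915 times. Both subunits of ribonucleotide reductase thus differed, since Rrm1 was 2.90 to 3.50 times as high and Rrm2 14.0 to 22.5 times. The helicase ring genes Mcm2 to Mcm7 ranged from 0.588 to 1.39 times.

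**Figure D5:**
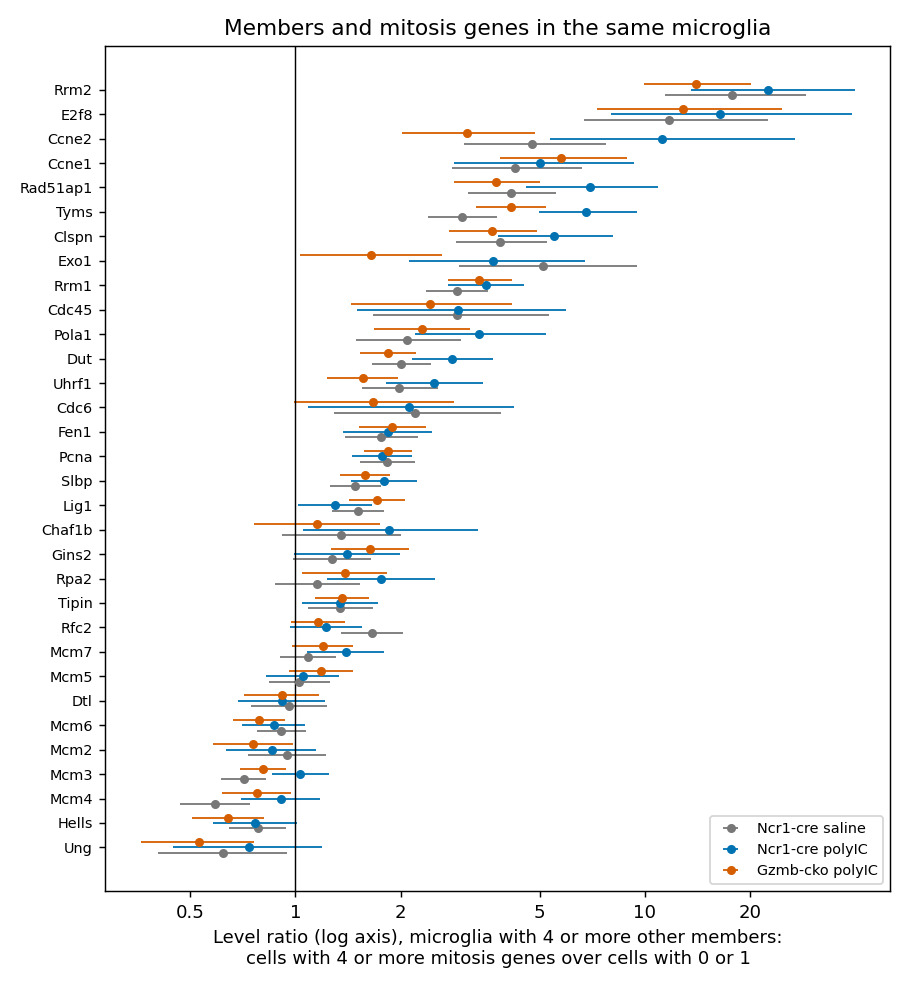
Level of each member (rows) in microglia with 4 or more mitosis genes over that in microglia with 0 or 1 (horizontal log axis), among cells with 4 or more other members, per library with exact 95% counting intervals. Rrm2 and E2f8 lie farthest right, between 11.7 and 22.5, and Ung, Hells and Mcm4 lie left of 1 in all 3 libraries.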

How the data were processed

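The values deposited by the authors are whole-number UMI counts, not normalised, for each gene in each barcode, made with Cell Ranger 5.0.0 per the file headers. The submitters' processing notes give Cell Ranger 3.0.1, with STAR and mm10. Barcodes with 500 or more genes and no more than 10% of UMIs from mitochondrial genes were used. Doublets, called by Scrublet in scanpy 1.11.5 at 0.8% per 1000 barcodes, were kept and, as an alternative, removed. UMIs were summed per gate and library and scaled to CPM. Exact 95% intervals are Poisson for levels, conditional binomial for ratios and Clopper-Pearson for shares. No p-value compares the groups, which have 1 library each. Cell classes were compared with edgeR 4.0.16 (Benjamini-Hochberg) in R 4.3.3 and with DESeq2 1.42.0. With the library as a block, these p-values measure how class differences vary over 3 libraries that also differ in treatment and genotype. The dispersion was estimated over all 5 gates. The code for ratios was tested on simulated counts. Thinning was checked on real barcodes of the saline library, against the expected total of member UMIs.

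Full values are given for at most 3 members per role with the most UMIs in microglia and for members past a ratio of 1.5. At most 4 genes of each other list and at most 4 members per comparison in other classes are named. Other named genes, the ratio of 1.25 and the class model were chosen after values were seen. Of 218 listed genes 217 were matched. The members and lists were chosen with earlier results of these data known.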

Additional observations from a re-analysis of the deposited data

How the results depend on the processing

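Values below are log2 ratios of the summed members unless counts or shares are named, and the cause of each shift was not tested. In microglia, polyIC over saline (-0.06) became -0.029 with at least 1000 genes and at most 5% mitochondrial UMIs, -0.15 with cells of exactly 1 gate, -0.11 with P2ry12 of at least 2, -0.25 with TMM, -0.19 without mitochondrial, ribosomal protein and hemoglobin genes and -0.093 as the mean of per-cell CPM. Gzmb-cko over polyIC (0.23) became 0.20 with the stricter cell filter, 0.18 with 1 gate, 0.33 with TMM and 0.17 per cell. Both kept their sign. The counts of 0 members past 1.5 became 1 with an equal UMI floor, 2 with 1 gate, 1 with P2ry12 of at least 2, 3 with TMM and 2 without those gene classes for polyIC over saline, and 1 with TMM for Gzmb-cko over polyIC. At 1.25, the 1 member higher in polyIC became 0 with 1 gate, TMM, without those gene classes and per cell. The 5 lower became 3 with the stricter filter, 10 with TMM and 2 above 50 CPM. The 10 higher in Gzmb-cko became 6 with 1 gate, 17 with TMM, 6 per cell and 2 above 50 CPM. Over 9 settings the 16 member ratios past 1.25 kept their sign, 120 of 144 values still past 1.25 and 24 not.

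Signs turned in other gates. Border macrophages, polyIC over saline (0.05), gave -0.0092 with 1 gate, -0.17 with TMM and -0.050 without those gene classes. Monocytes (0.04) gave -0.054 without doublets, -0.14 with TMM and -0.12 without those gene classes. Radial glia (0.08) gave -0.17 with 1 gate, -0.10 with TMM and -0.0046 per cell, and Gzmb-cko over polyIC (0.05) gave -0.20 per cell. Globin-rich cells, Gzmb-cko over polyIC (0.23), gave -0.14 with 1 gate.

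Shares of microglia with 4 or more members in saline, polyIC and Gzmb-cko were 19.7%, 17.1% and 21.1% at 2000 UMIs, 40.8%, 35.0% and 42.6% unthinned, 35.7%, 31.4% and 36.1% with at least 3 members and 18.3%, 15.2% and 19.1% with at least 6. The saline share was 30.4% with 1 gate and 29.9% with P2ry12 of at least 2. The polyIC share was lowest in each of the 4 settings given for all libraries.

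Of class calls by edgeR, the 1 lower member in border macrophages became 0 with all gated cells (where 1, Cdc6, was called higher), 0 with DESeq2 and 0 with any library left out. The 1 lower in globin-rich cells became 2 without the filter on low counts, 2 with DESeq2 and 0 to 2 with a library left out. The 17 higher in radial glia became 14 with all gated cells (where 2 were lower in place of 1), 14 without the filter on low counts and 18 with DESeq2. With a library left out they became 11 to 13. The 46 called values kept their sign in 6 settings, 243 past the threshold and 33 not.

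No paired analysis was possible between groups, because each had 1 library, and no test was made between them. Cell classes were compared within libraries, with the library as a block. The median Poisson half-width of a member was 25.3% in monocytes and 23.2% in radial glia, against 6.02% in microglia.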
